A study of Rattus norvegicus with 6 samples.

Results

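Transcripts of 10 genes that encode brakes of the cell cycle, the 7 Cdkn1 and Cdkn2 inhibitors of cyclin-dependent kinases (CDKs) and the 3 Gadd45 genes, were followed in rat neuronal progenitor cells given corticosterone or vehicle. They were found by symbol in the platform annotation of the array, where Cdkn1a, Cdkn1b, Cdkn1c, Cdkn2a, Cdkn2b, Cdkn2c, Cdkn2d, Gadd45a, Gadd45b and Gadd45g are measured by 14 of 31099 probe sets and stand among 14217 named genes. Of these genes 6 have 1 probe set and 4 have 2. The treated cells received the glucocorticoid hormone corticosterone at 1 µM for 48 h, and the vehicle cells received its solvent dimethyl sulfoxide for the same time. All cells came from cerebral cortices of rat embryos at day E15.5 and grew on fibronectin with 20 ng/ml of the mitogen bFGF; strain and sex are not stated in the labels. RNA of 3 corticosterone and 3 vehicle samples was hybridised to 1 array each, in 3 couples of 1 treated and 1 vehicle sample.

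CDK inhibitors are small proteins that hold cyclin-CDK complexes inactive and so set whether a progenitor goes on dividing or leaves the cycle. The Cip/Kip proteins (Cdkn1a, Cdkn1b, Cdkn1c) bind complexes of several cyclins, whereas the Ink4 proteins (Cdkn2a, Cdkn2b, Cdkn2c, Cdkn2d) bind only the kinases Cdk4 and Cdk6. Gadd45 proteins are short-lived stress proteins that bind the proliferating cell nuclear antigen, Cdk1 and the kinase Map3k4, and in mouse neural cells they are also known for a part in active DNA demethylation.

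The values are MAS5 signals per probe set on a linear scale, in which each array had been scaled to one mean. Medians of the arrays were 124 to 134 with corticosterone and 108 to 122 with vehicle, and RNA integrity, read as the 3′ over the 5′ signal of Actb, stood at 1.76 to 2.03 with corticosterone and 1.55 to 2.12 with vehicle. The lowest median and the lowest Actb ratio were both those of the vehicle array of couple 1, and the next lowest median was 119. Progenitor markers were present in both groups: Sox2 averaged 8833 ± 1039 with corticosterone and 8699 ± 1081 with vehicle, and Nes 3385 ± 247 with corticosterone and 2827 ± 186 with vehicle (SD, n = 3 each, as for every mean here). Of 9 tested progenitor markers 2 rose (Nes and Slc1a3, log2 fold changes of 0.26 and 0.49) and 0 fell. This count and those of the marker lists below stand against the 11.7% of all genes that rose and the 7.77% that fell. Markers of other cells also moved with the treatment. Of 9 tested markers of meningeal cells, pericytes and fibroblasts 6 rose (S100a4, Postn, Fn1, Acta2, Col1a2 and Igfbp2) and 0 fell. Col1a1, Col3a1 and Anpep did not pass. The summed signal of all 15 was 21520 to 25090 with corticosterone and 13121 to 16044 with vehicle. Most of that sum was Igfbp2; the other 14 summed to 5136, 7657 and 2368 with corticosterone in couples 1, 2 and 3, against 1078, 3450 and 1195 with vehicle, which overlap. Couple 2 stood apart in both groups for several fibroblast markers: Lum had 143 with corticosterone and 136 with vehicle in couple 2 and under 3 on the other arrays, and Col3a1 had 928 with corticosterone and 577 with vehicle in couple 2 and at most 94.1 elsewhere. Postn, 1 of the 6 that rose, had vehicle signals of 2.36, 214 and 5.41 in couples 1, 2 and 3, against 338, 522 and 84.9 with corticosterone. Its mean log2 vehicle signal lay below the filter on low signals, so it was tested through its treated arrays. Dcn, Lum, Pdgfrb, Rgs5, Foxc1 and Tagln of that list were too dim to test, and 0 of the 15 lay at background on all 6 arrays. Of 5 tested astrocyte markers 4 rose (S100b, Aldoc, Slc4a4 and Gja1) and 0 fell. Gfap did not pass (limma adjusted p = 0.13), and Aqp4, Aldh1l1 and Slc1a2 were too dim to test. The summed signal of all 8 was 14254 to 20637 with corticosterone and 6428 to 9765 with vehicle. Most of it was Gja1, and the other 7 summed to 5614 to 7718 with corticosterone and 1643 to 2673 with vehicle. The 10 microglial markers summed to 519 to 776 with corticosterone and 370.0 to 454 with vehicle. Without Cd14, the brightest, the other 9 summed to 353 to 439 with corticosterone and 286 to 348 with vehicle. Only 3 of the 10 were bright enough to test. Of these 1 rose (Cd14), and Itgam lay at background on all arrays. The 8 endothelial markers summed to 189 to 279 with corticosterone and 130.1 to 201 with vehicle, with 0 bright enough to test and Vwf at background on all arrays. Of 5 tested markers of oligodendrocyte precursors 2 fell (Pdgfra and Myt1, log2 fold changes of −1.64 and −1.45) and 0 rose, and all 6 summed to 17017 to 23887 with corticosterone and 20945 to 26330 with vehicle. Most of that sum was Olig1. The other 5 summed to 1995, 1493 and 3374 with corticosterone in couples 1, 2 and 3, against 6274, 2638 and 6281 with vehicle. Of 9 tested neuronal markers 1 fell (Tubb3) and 0 rose, and all 10 summed to 8942 to 12815 with corticosterone and 11915 to 12851 with vehicle. Most of the neuronal sum was Map2, and the other 9 summed to 2636 to 3342 with corticosterone and 2845 to 3628 with vehicle. Sox10 and Nefl of these lists were too dim to test, and 0 of their markers lay at background on all arrays. The part of these cells in the changes below was not tested, and in such bulk samples more cells of a type and more RNA per cell cannot be told apart.

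Of the 10 genes 5 rose with corticosterone, 0 fell and 5 did not pass, by limma with the couple as a term and a Benjamini-Hochberg adjusted p under 0.05 over all 18625 tested probe sets. Over all 9910 genes tested, each by its brightest probe set, 11.7% rose and 7.77% fell. The genes that rose were Gadd45a, the Cip/Kip inhibitor Cdkn1a, and Cdkn2a, Cdkn2b and Cdkn2c of the Ink4 family. Treated and vehicle signals did not overlap for 3 of the 10 (Cdkn2b, Cdkn2c and Gadd45a, all higher), against 14.8% of all genes higher without overlap. Signals were higher in all 3 couples for 6 of the 10 and lower in all 3 for 2, against 27.7% and 27.2% of all genes. Cdkn2b is in each of these counts of higher genes, yet its vehicle mean lay below the filter on low signals, so it was tested through its treated arrays. The median log2 fold change was 0.25 over the 10 and −0.002 over all 9910 genes. These fold changes are on the scale of log2(signal + 28.6), which understates the change of dim genes.

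The calls rest on the comparison within couples. Without the couple as a term 1 of the 10 genes, Gadd45a, passed with limma, where 2.63% of all genes rose and 0.363% fell. Centring each array on its median lowered the median log2 fold change of all tested probe sets to −0.11 and gave 4 of the 10 genes higher (not Cdkn2c) and 2 lower (Cdkn1b and Gadd45g), where 8.36% of all genes rose and 18.3% fell. With couple 1 or couple 2 left out 3 of the 10 passed as higher, and Cdkn2a and Cdkn2c did not. The share of all genes that passed was not taken for those fits, so these counts have no baseline.

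**Figure D1:**
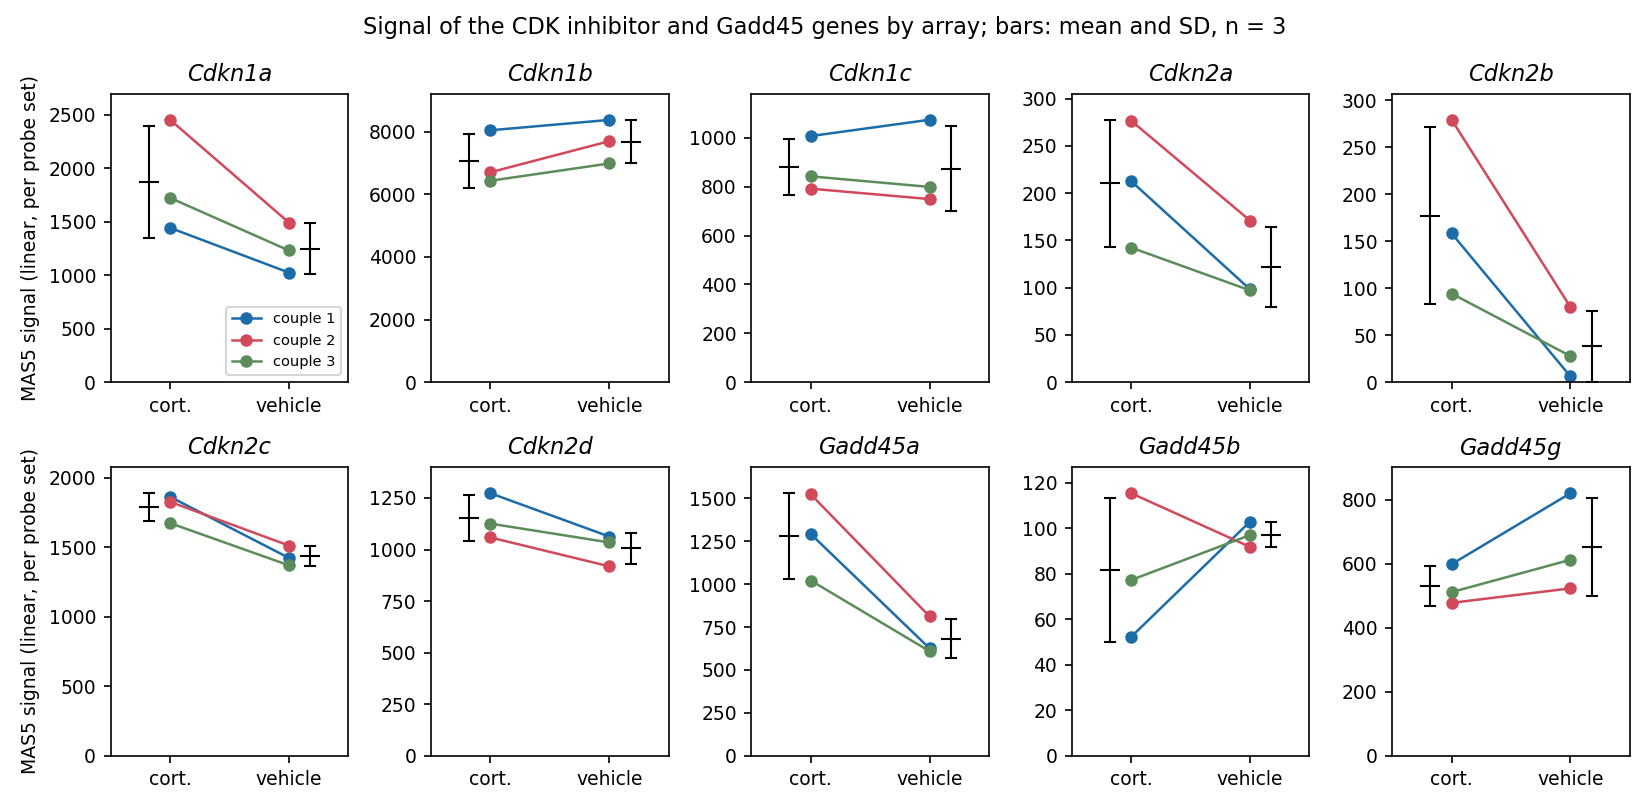
Linear MAS5 signal of the brightest probe set of each of the 10 genes, on axes that start at 0, with corticosterone at the left and vehicle at the right; coloured points and lines are the 3 couples, and black bars are the mean and SD of 3 arrays. All 3 lines lie higher at the corticosterone end for Cdkn1a, Cdkn2a, Cdkn2b, Cdkn2c, Cdkn2d and Gadd45a, and lower for Cdkn1b and Gadd45g.

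Cdkn1a encodes p21, the best known transcriptional target of p53 among the inhibitors and a gene also induced in many cells that leave the cycle. Its brighter probe set, 1388674_at, had signals of 1444, 2455 and 1724 with corticosterone in couples 1, 2 and 3, against 1025, 1494 and 1232 with vehicle. The groups overlapped, since the vehicle array of couple 2 lay above the treated array of couple 1, but each treated array exceeded its own partner by a factor of 1.41, 1.64 and 1.40. The log2 fold change was 0.55 ± 0.08 (SE; limma adjusted p = 7.3e-04, and 0.22 without the couple as a term). The dimmer probe set, 1387391_at, had signals of 285, 262 and 197 with corticosterone, against 199, 167 and 128 with vehicle. Its log2 fold change was 0.52 ± 0.13 (SE; limma adjusted p = 0.022, and 0.23 without the couple as a term). That call ended with any 1 of the couples left out (adjusted p from 0.053 to 0.15) and without the filter on low signals (0.072). The probe sets gave nearly the same change but ordered the couples differently, with couple 2 highest on one and couple 1 highest on the other in both groups.

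Cdkn1b encodes p27, an inhibitor that accumulates in cells held out of the cycle and whose amount is set largely by protein turnover. Its brighter probe set, 1373812_at, had signals of 8041, 6701 and 6431 with corticosterone, against 8372, 7692 and 6981 with vehicle. Each treated array lay below its partner, by a small margin, while the groups overlapped. The log2 fold change was −0.12 (95% interval −0.25 to 0.0024; limma adjusted p = 0.17), and median centring of the arrays made it −0.23, which passed (0.022). The second probe set, 1369192_at, had signals of 180.4, 134 and 164 with corticosterone and 148, 186 and 145 with vehicle, and gave −0.0039 (−0.37 to 0.36). Cdkn1c, which encodes p57, an imprinted inhibitor active in the embryo, had signals of 1007, 792 and 842 with corticosterone and 1074, 749 and 799 with vehicle. Its log2 fold change was 0.02 (95% interval −0.17 to 0.21; limma adjusted p = 0.90), with 2 couples higher and 1 lower.

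Of the Ink4 genes, Cdkn2b showed the largest fold change among the 10. It encodes p15, which in epithelial cells is induced by TGF-beta. Signals of 1369193_at were 158, 279 and 94.3 with corticosterone, against 6.19, 80.02 and 27.8 with vehicle. The lowest treated array thus lay above the highest vehicle array, and the vehicle array of couple 1 lay under the background signal of 22.8 that control probe sets for absent bacterial RNA gave. The log2 fold change was 1.68 ± 0.25 (SE; limma adjusted p = 0.0010, and 0.097 without the couple as a term). In couple 1 the ratio is at least 6.95-fold against background, and it was 3.49 and 3.39 in couples 2 and 3. The fit takes that dim vehicle array at its measured signal; without couple 1 the log2 fold change was 1.31 (limma adjusted p = 0.0021). With a pseudocount of 100 the log2 fold change was 0.99. The mean of the vehicle arrays alone lay below the filter on low signals, so the gene was tested through its treated arrays.

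Cdkn2a is a neighbour of Cdkn2b on chromosome 5, with 1 annotated gene between them in assembly GRCr8, and encodes both the kinase inhibitor p16 and, in another reading frame, Arf, which stabilises p53. The annotation does not say which of its transcripts 1369194_a_at detects. Signals were 213, 277 and 142 with corticosterone, against 98.2, 171 and 97.1 with vehicle. Couple 2 was highest and couple 3 lowest in both groups, as for Cdkn2b among the treated arrays, and the vehicle array of couple 2 lay above the treated array of couple 3. Couple 2 is also the one where the fibroblast markers Lum and Col3a1 stood apart in both groups; their part in the levels of Cdkn2a and Cdkn2b was not tested. The log2 fold change was 0.66 ± 0.16 (SE; limma adjusted p = 0.015), with ratios of 2.17, 1.62 and 1.47 in couples 1, 2 and 3. The call ended without the couple as a term (adjusted p = 0.26), without couple 1 or 2 (0.105 and 0.11) and without the filter on low signals (0.067). The log2 differences within couples 1, 2 and 3 were 0.93, 0.61 and 0.44.

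Cdkn2c encodes p18, an Ink4 protein known from dividing neural progenitors of mice. Signals of 1370054_at were 1863, 1827 and 1674 with corticosterone, against 1424, 1512 and 1370.2 with vehicle. The ranges did not overlap, and the ratios within couples were 1.31, 1.21 and 1.22. The log2 fold change was 0.31 ± 0.07 (SE; limma adjusted p = 0.013), the smallest among the 5 genes that rose. The call ended without the couple as a term (adjusted p = 0.15), without couple 1 or 2 (0.087 and 0.072), without the trend of variance on intensity (0.094) and with median centring (0.084). The second probe set, 1378711_x_at, lay below the filter and was not tested. It had signals of 61.7, 59.8 and 39.2 with corticosterone and 57.6, 63.6 and 74.7 with vehicle, which do not share the direction of the first, and its suffix is the manufacturer's mark for probes that may bind other transcripts. Cdkn2d, which encodes p19 of the Ink4 family, known from mouse neurons that have stopped dividing, did not pass on either probe set. Signals of 1384488_at were 1273, 1058 and 1126 with corticosterone and 1063, 918 and 1034 with vehicle, a log2 fold change of 0.19 (95% interval 0.02 to 0.36; limma adjusted p = 0.13). Its other probe set, 1393441_at, had 975, 725 and 698 with corticosterone and 771, 656 and 656 with vehicle and gave 0.18 (−0.02 to 0.38; adjusted p = 0.20), so both were higher in all 3 couples by a small amount.

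**Figure D2:**
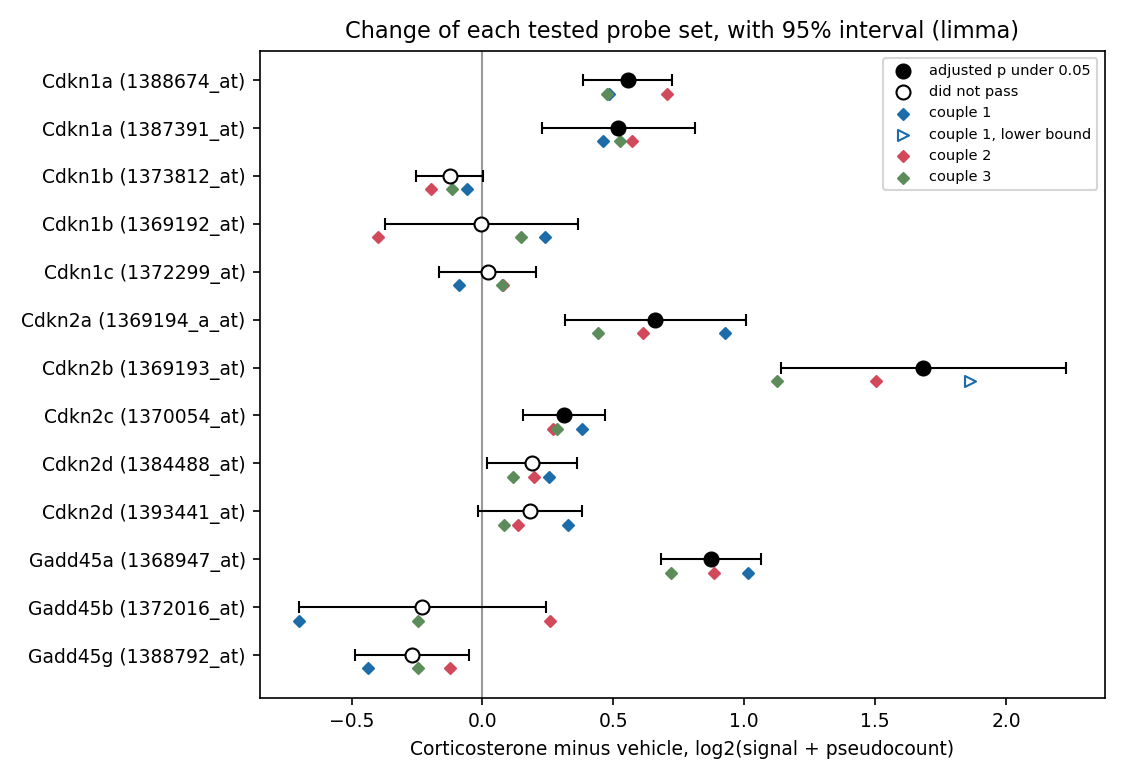
Change of each of the 13 tested probe sets as corticosterone minus vehicle on the log2(signal + pseudocount) scale, with limma's 95% interval; filled circles passed an adjusted p of 0.05, open circles did not, diamonds are the differences within couples 1, 2 and 3, and the open triangle is a lower bound against background where the vehicle signal lay under it. Cdkn2b stands at 1.68, with 1.50 and 1.12 in couples 2 and 3 and at least 1.86 in couple 1, and Gadd45a at 0.87 with the couples from 0.72 to 1.01.

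Of the Gadd45 genes, Gadd45a rose and the other two did not pass. Gadd45a, named for growth arrest and DNA damage and a target of p53 and FoxO factors, had signals of 1292, 1523 and 1021 on 1368947_at with corticosterone, against 625, 812 and 609 with vehicle. The groups did not overlap, and the treated array was higher by a factor of 2.07, 1.88 and 1.68 in couples 1, 2 and 3. The log2 fold change was 0.87 ± 0.09 (SE; limma adjusted p = 8.8e-05), and it passed in all 12 alternatives run (adjusted p from 8.6e-05 to 0.036). Gadd45b, an immediate early gene of the family that neuronal activity induces in mice, had signals of 52.3, 115 and 77.3 on 1372016_at with corticosterone and 102.9, 91.8 and 97.01 with vehicle. The treated arrays spread to both sides of the vehicle arrays, and the log2 fold change was −0.23 (95% interval −0.70 to 0.24; limma adjusted p = 0.52). Gadd45g, the member tied to neurogenesis in vertebrate embryos, had signals of 598, 477 and 511 on 1388792_at with corticosterone and 820, 523 and 612 with vehicle. It was lower in each couple, with overlapping groups and a log2 fold change of −0.27 (95% interval −0.49 to −0.05; limma adjusted p = 0.092), and it passed as lower with median centring (−0.38, adjusted p = 0.029). The interval of Gadd45a, 0.68 to 1.07, lies above those of Gadd45b and Gadd45g; the difference between the genes was not tested.

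Promoter sequences are shown for Gadd45a, Cdkn2b and Cdkn1a, the genes with the smallest adjusted p among the 10, so that the elements near their starts can be read beside the changes. RefSeq windows of assembly GRCr8, from 250 bases before to 50 after the start, were found for 9 of the 10 genes. Those of Gadd45a (chr4:97486750-97487049, minus strand), Cdkn2b (chr5:109134806-109135105, minus strand) and Cdkn1a (chr20:7150682-7150981, plus strand) read as follows, 5′ to 3′ on the gene's strand, with capitals for any of 10 searched motifs.
Gadd45a: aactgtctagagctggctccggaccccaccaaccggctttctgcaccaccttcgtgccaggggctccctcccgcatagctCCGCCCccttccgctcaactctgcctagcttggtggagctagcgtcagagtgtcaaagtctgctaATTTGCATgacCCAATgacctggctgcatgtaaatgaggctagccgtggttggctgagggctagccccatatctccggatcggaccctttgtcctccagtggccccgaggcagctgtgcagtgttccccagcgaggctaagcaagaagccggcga
Cdkn2b: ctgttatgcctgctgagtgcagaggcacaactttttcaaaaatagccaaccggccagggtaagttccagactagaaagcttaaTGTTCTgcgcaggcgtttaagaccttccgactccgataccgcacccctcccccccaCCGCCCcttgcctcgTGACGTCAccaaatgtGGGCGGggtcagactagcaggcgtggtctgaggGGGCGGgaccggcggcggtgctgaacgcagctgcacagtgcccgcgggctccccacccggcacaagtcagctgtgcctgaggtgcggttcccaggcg
Cdkn1a: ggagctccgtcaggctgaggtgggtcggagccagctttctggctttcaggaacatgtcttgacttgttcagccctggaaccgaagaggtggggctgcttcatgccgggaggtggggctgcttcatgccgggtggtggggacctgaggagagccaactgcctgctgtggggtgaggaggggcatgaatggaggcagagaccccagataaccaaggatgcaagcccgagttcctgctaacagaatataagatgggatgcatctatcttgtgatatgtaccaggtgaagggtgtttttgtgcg
In Gadd45a the capitals mark, in order, a GC box, an octamer that starts 105 bases before the start and a CCAAT box at 94. In Cdkn2b they mark a glucocorticoid hexamer at 167 bases before the start, GC boxes at 111, 80 and 47 and a cyclic AMP response element at 96. The Cdkn1a window held none of the 10 motifs. Elements outside these windows, such as near other starts of a gene, were not searched, so this does not describe the whole promoter. The 10 motifs do not include an element for p53, so such elements were not searched in any window. The motifs were searched on both strands as exact letters, and those found in these windows do not overlap; the arm AGAACA is itself part of the full glucocorticoid element. The full palindromic glucocorticoid response element, with 3 free bases between its arms, was in 0 of the 9 windows and in 0.0149% of all 33469. Its single arm was in 1 of the 9 windows and 20.7% of all. The GC box, GGGCGG, was in 7 of the 9 and 33.1% of all, and the CCAAT box, CCAAT, in 4 and 37.5%. The octamer, ATTTGCAT, was in the windows of Gadd45a and Gadd45g and in 1.78% of all. The cyclic AMP response element, TGACGTCA, was in that of Cdkn2b and in 1.83% of all. The E-box, CACGTG, was in 2 of the 9 windows and 6.42% of all, and the TATA box, TATAAA, in 1 and 14.2%. The FoxO element, GTAAACA, was in 0 of the 9 and 3.78% of all, and the Smad element, GTCTAGAC, in 0 and 0.197%. A match of letters is a description of the window and not a site of binding.

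Genes for the proteins that CDK inhibitors act on, and for those these control, were read against the 11.7% of all genes that rose and the 7.77% that fell. Of 13 tested cyclins, kinases and pocket proteins 1 rose, 0 fell and 12 did not pass (median log2 fold change −0.04; an unadjusted limma p under 0.05 held 2 higher and 3 lower, and with median centring 3 passed as lower). The gene that rose was Ccnd2, a D cyclin gene of cycling cortical progenitors. Its signals were 8433, 8343 and 7500.03 with corticosterone, against 4767, 7027 and 5842 with vehicle. The log2 fold change was 0.47 ± 0.09 (SE, limma adjusted p = 0.0054, and 0.12 without the couple as a term or 0.10 without the intensity trend). Without couple 1 its log2 fold change was 0.30 (adjusted p = 0.0080). The brighter D cyclin gene Ccnd1 averaged 14448 ± 601 with corticosterone and 13625 ± 1731 with vehicle and did not pass (0.09, limma adjusted p = 0.48). Cdk4, a kinase that the Ink4 proteins bind, averaged 8050 ± 169 with corticosterone and 8823 ± 88.4 with vehicle (−0.13; adjusted p = 0.14), and the other, Cdk6, was too dim to test. Of 16 tested genes driven by E2F factors, which active CDKs release from the retinoblastoma protein, 0 passed with limma in either direction, while an unadjusted p under 0.05 held 0 higher and 6 lower. For counts at an unadjusted p, here and in the other lists, the share over all genes was not taken, so they have no baseline. Ccne1, Ccne2 and Ccna2 are in both this list and that of the cyclins. The median log2 fold change of the 16 was −0.10 with 14 below 0, where that of all 9910 genes was −0.002. With median centring 6 passed as lower, where 18.3% of all genes did. Mcm7 of the replicative helicase had the smallest adjusted p of that list, 0.056, with a log2 fold change of −0.25.

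Of 16 tested genes of the p53 pathway, which acts upstream of Cdkn1a and Gadd45a, 2 rose, 2 fell and 12 did not pass (median 0.0032), against 11.7% higher and 7.77% lower among all genes. Counts this small do not set the list apart from all genes. Fas, a death receptor gene, had signals of 112, 169.5 and 75.6 with corticosterone, against 45.9, 48.2 and 22.8 with vehicle, without overlap (1.10 ± 0.20, SE; limma adjusted p = 0.0040), and its vehicle mean also lay below the filter. With a pseudocount of 100 its log2 fold change was 0.64. Ccng1, a cyclin G gene induced by p53, rose by 0.47 (adjusted p = 0.0022). Plk2, a polo-like kinase gene, had 3065, 1544 and 2572 with corticosterone, against 4218, 2977 and 3622 with vehicle (−0.63, adjusted p = 8.9e-04), and Sesn2, of the stress-induced sestrins, fell (−0.41, adjusted p = 0.012). Mdm2, the p53 target that degrades p53, did not pass (−0.04, adjusted p = 0.78). None of the 4 called genes passed without the couple as a term (adjusted p from 0.086 to 0.33), nor did Fas without couple 2 (0.074) or Sesn2 without couple 1 or 2 (0.065 and 0.054). Ccng1 and Sesn2 also did not pass without the intensity trend (0.064 and 0.0604).

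Of 9 tested TGF-beta pathway genes 2 rose, 1 fell and 6 did not pass (median 0.02). Smad3, which carries the signal to the nucleus, had signals of 390, 416 and 391 with corticosterone, against 230.4, 325 and 218 with vehicle (0.60 ± 0.13, SE; limma adjusted p = 0.0080). Tgif1, a repressor of Smad-driven transcription, rose by 0.57 (limma adjusted p = 2.9e-04), and neither its signals nor those of Smad3 overlapped between the groups. Skil, another such repressor and itself a target of the pathway, had 1572, 1604 and 1905 with corticosterone, against 2796, 2494 and 2600 with vehicle, without overlap (−0.63 ± 0.08, SE; adjusted p = 4.3e-04). Skil passed without the couple as a term (adjusted p = 0.023), and Smad3 and Tgif1 did not (0.11 and 0.084). Of 13 tested FoxO factors and targets 1, the catalase gene Cat, rose (0.25, limma adjusted p = 0.028) and 12 did not pass, with a median of 0.15. The call of Cat ended with any 1 of the couples left out (0.065 to 0.18), without the couple as a term (0.27), trend (0.14) or filter (0.051), and with median centring (0.199). Of 8 genes of p27 turnover 0 passed with limma (an unadjusted p under 0.05 held 1 higher and 1 lower, and 2 passed as lower with median centring). Of 8 tested partners of Gadd45 proteins and kinases downstream of them 1 rose, Map2k6, which activates p38 (0.58, limma adjusted p = 0.013), and 7 did not pass. That call ended without couple 2 or 3 (0.13 and 0.056), without the couple as a term (0.27) and without the filter (0.053).

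**Figure D3:**
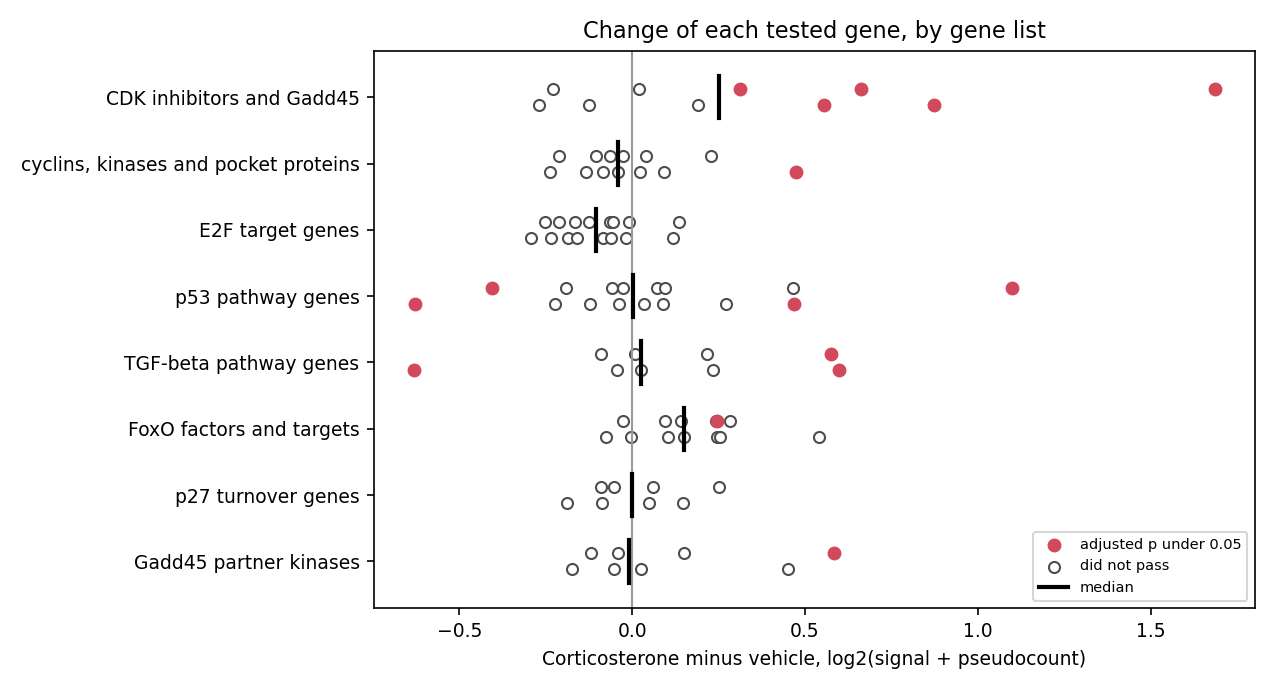
Change of each tested gene as corticosterone minus vehicle on the log2(signal + pseudocount) scale, in the 10 inhibitor and Gadd45 genes and 7 related lists; red points passed an adjusted p of 0.05, open points did not, and black bars are medians. The medians of the related lists lie between −0.10 and 0.15, and that of the 10 genes at 0.25.

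The genes whose signals most resembled those of the 5 genes that rose were taken by Pearson correlation of log2 signals over the 6 arrays, among 9909 other genes. For Gadd45a these were Prkca and Akap12 (both r = 0.998), for Cdkn1a Map1a and Slc20a2 (0.998 and 0.995), and for Cdkn2b Ier5 and Pros1 (0.997 and 0.995). For Cdkn2a they were Ctsb and Ormdl2 (0.995 and 0.994) and for Cdkn2c Ctsa and Igsf11 (0.997 and 0.996). The arrays share 2 treatments and 3 couples, and between 388 and 723 genes reached an r above 0.9 with each of the 5, so such values describe these arrays.

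**Figure D4:**
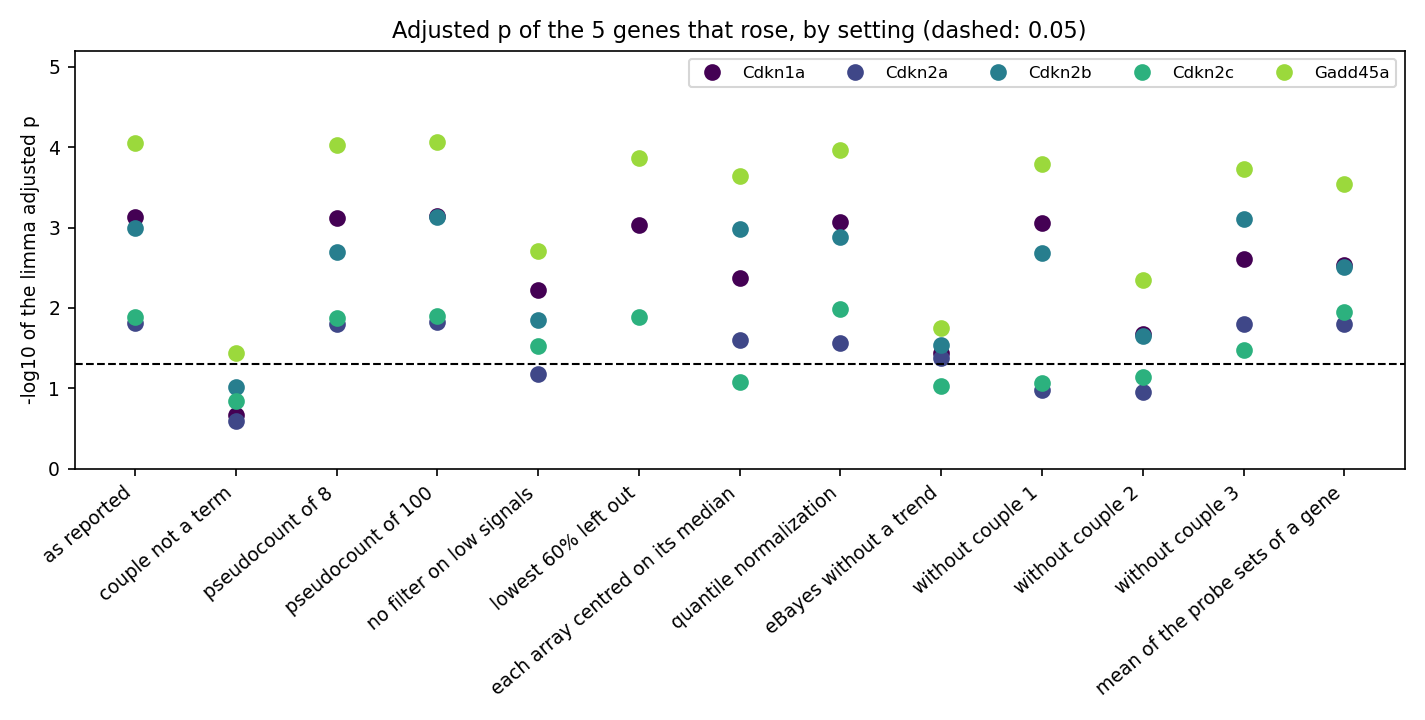
The −log10 of limma's adjusted p for the 5 genes that rose, under the reported setting and each alternative, with the dashed line at 0.05; Cdkn2a and Cdkn2b have no point where the lowest 60% of probe sets were left out. Gadd45a lies above the line throughout, and without the couple as a term it is the only one that does.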

How the data were processed

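Each deposited value is the linear signal intensity of 1 probe set, made by the authors with MAS5 per the submitters' processing notes; its version and settings are not stated there. The mean without the extreme 2% at either end was 500.2 on each array. The labels' protocols describe 3 µg of total RNA and oligo(dT) priming, which weights signals to the 3′ end. Signals were transformed to log2(signal + 28.6), the 25th percentile of all values; the dimmest 40% (mean signal under 63.6) and 57 control probe sets were left out. Background, 22.8, is where 95% of the values of 27 bacterial control probe sets lay below. limma 3.58.1 in R 4.3.3 (lmFit, eBayes with an intensity trend) was fitted with treatment and couple as terms over 18625 probe sets; tests are two-sided. The series' design text states the couples; deviations from group means correlated by 0.57, 0.52 and 0.35 within couples 1, 2 and 3, and by −0.48 to 0.0034 between them. Nothing states that couples were separate cultures, so p-values measure the spread between these samples, which may be technical. The number of arrays limits precision.

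Of the probe sets 20826 have 1 gene symbol, 436 several and 9780 none. All 10 Entrez identifiers were found in the GRCr8 gene table. The genes, lists and tests were chosen with earlier results of these data known. Named were all 10 genes with every probe set, genes of 7 related lists that passed (at most 6 a list), and the 2 genes most correlated with each gene that rose. Mdm2, Cdk4, Cdk6, Ccnd1, Ccne1, Ccne2, Ccna2, Mcm7 and the markers were added after their values were seen. Alternatives covered the couple term, pseudocount, filter, scaling, trend, each couple left out and the probe sets of a gene averaged. No batch or scan date is given. The fit was tested on simulated data.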

Additional observations from a re-analysis of the deposited data

How the results depend on the processing

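The limits are 3 couples, dim signals for Cdkn2a, Cdkn2b and Gadd45b, and a scaling that fixes the mean of each array. Over the tested probe sets of the 10 genes, 125 of 148 results under alternatives kept direction and side of the threshold, 16 no longer passed, 2 newly passed and 5 changed sign. In the last, log2 fold changes that did not pass turned to 0.19 for Cdkn1b (1369192_at) without couple 2 (−0.13 to 0.19 with 1 couple left out), to −0.086 for Cdkn1c with median centring and to −0.0083 and −0.0066 without couples 2 and 3 (−0.0083 to 0.075), and to 0.0058 for Gadd45b without couple 1 (−0.47 to 0.0058). The 148 include probe sets that did not pass in the reported setting, while all 16 losses lay in those that did. These losses were 5 each for Cdkn2c and the dimmer probe set of Cdkn1a, and 4 for Cdkn2a. Cdkn2b and the brighter probe set of Cdkn1a had 1 each. The count of the 10 genes that rose, 5, was 1 without the couple as a replicate block (5 at an unadjusted p under 0.05). It was 3 of the 7 genes still tested with the lowest 60% left out, and 3 to 5 with 1 couple left out. The count that fell, 0 (1 at an unadjusted limma p under 0.05), was 2 with median centring and stayed 0 elsewhere. Over the 7 related lists 7 genes rose and 3 fell. Without the replicate block 0 rose in limma (8 at an unadjusted p under 0.05) and 1 fell, without the intensity trend 4 rose, and with median centring 14 fell and 6 rose. With 1 couple left out 4 to 7 rose and 2 to 6 fell. Shares over all genes were taken only for the reported setting, without the couple as a term and with median centring. Counts under the other settings thus have no baseline. The causes of these moves were not tested.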
